A study of Homo sapiens with 4 samples.

Results

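WDHD1, the bridge between the replicative helicase and DNA polymerase alpha, is set here beside 9 partners at the replication fork in the RNA of HCT116 cells: CDC45, GINS1, GINS2, GINS3, GINS4, TIMELESS, TIPIN, CLSPN and DONSON. These 10 genes were taken from the 63677 counted genes by matching Ensembl identifiers to symbols, and all 10 passed the filter on low counts among the 15116 genes tested. WDHD1 was selected on measured values of this same contrast, because its RNA was lower in both pairs of libraries, so its change is a description and carries no p. The other 9 were chosen by their role at the fork, with earlier results of these data known, and are tested.

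The data come from HCT116, a human colorectal cancer line, transfected with an anti-GAA antisense oligonucleotide (ASO) or with a control ASO, with 2 libraries for each and no untreated library. The anti-GAA ASO is 21 nt of repeated TTC, complementary to RNAs with tandem GAA repeats, and has 2′-O-methoxyethyl bases at both ends around a DNA centre, a design that lets RNase H cut the bound RNA. The labels give 48 h of transfection and the study's methods give a shorter time for ASOs, and the labels and the methods also name different library kits (total RNA against stranded mRNA). The study's methods call the RNA-seq duplicate experiments without saying what was repeated, and the p-values rest on the spread between these libraries.

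At a replication origin, the ring of MCM2 to MCM7 is loaded as an inactive double hexamer, and becomes an active helicase when CDC45 and the 4-subunit GINS complex join it to form CMG. DONSON helps to bring GINS to the MCM ring. WDHD1, also called AND-1 and the counterpart of yeast Ctf4, ties CMG to polymerase alpha-primase and to sister chromatid cohesion. TIMELESS, TIPIN and CLSPN (claspin) travel with the fork as the fork protection complex, keep its speed and pass the signal from the ATR kinase to CHK1.

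The RNAs of WDHD1, TIMELESS and CLSPN hold the longest runs of GAA among the 10 genes, and these runs are shown because they are the sequence that the anti-GAA ASO is built to pair with. A run here is an unbroken stretch of the GAA repeat in any frame, read on the RNA strand of the longest annotated transcript (GENCODE 44, GRCh38). It is printed in capitals with 6 bases on each side in lower case, and the run of DONSON is added as one of the 7 short ones.
WDHD1: gaagagGAAGAAGAAGAAGAAGAtttcag
TIMELESS: gagaagGAAGAAGAAGAAGAAGgtccta
CLSPN: acagctGAAGAAGAAGAAGAAattggg
DONSON: gcacagGAAGAAGctcaag

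All 4 printed genes lie on the minus strand. The run of WDHD1 (ENSG00000198554) is 17 nt long, lies in coding sequence in exon 19 of 26 at chr14:54962976-54962992, and reads as 5 whole GAA codons, for glutamate. That of TIMELESS (ENSG00000111602) is 16 nt long, in coding sequence in exon 14 of 29 at chr12:56425117-56425132, and is read in another frame as 5 AAG codons, for lysine. That of CLSPN (ENSG00000092853) is 15 nt long, in coding sequence in exon 22 of 25 at chr1:35738059-35738073, again as 5 GAA codons. The short run of DONSON (ENSG00000159147) covers 7 nt of coding sequence in exon 3 of 10 at chr21:33586037-33586043. In the other 6 genes the longest run had 6 or 7 nt.

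The best ungapped match to the full 21 nt of repeat tells the same 3 genes from the rest, and the stretches are printed with each matching base in capitals and each mismatch in lower case. WDHD1 matched at 20 of 21 positions (chr14:54962978-54962998), TIMELESS at 18 (chr12:56425121-56425141) and CLSPN at 18 (chr1:35751262-35751282).
WDHD1: GAAGAgGAAGAAGAAGAAGAA
TIMELESS: GAAGAgaAgGAAGAAGAAGAA
CLSPN: GAAGAgGAgGAgGAAGAAGAA

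The best site of CLSPN is not its longest run, and its transcript held 2 sites with at least 18 matching positions, against 1 each in WDHD1 and TIMELESS. The other 7 transcripts matched at 13 to 16 positions. Searching every annotated transcript in place of the longest left the runs of WDHD1, TIMELESS and CLSPN at 17, 16 and 15 nt and gave none above 8 nt in the other 7. Introns did not change this order, since the longest runs over the whole gene bodies of the other 7 were 7 to 10 nt.

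Total counts were 10538284 to 17894953 per library. Libraries differed more by replicate number than by ASO (52.7% of the variance lay along a principal component that parted the numbers and 33.1% along one that parted the ASOs), so libraries of the same number are also compared with each other and are called a pair, although the labels do not say that a number marks a shared culture or day. Of 8 markers of a colorectal epithelial line, 5 were tested, and the list summed to 2552 to 2895 CPM (counts relative to library size, scaled by TMM factors throughout). Marker lists of other cell types summed to 10.3 to 14.8 CPM (fibroblast, 3 of 6 at 0 in all libraries), 0.354 to 0.848 CPM (leukocyte, 2 of 6 at 0) and 0.281 to 1.30 CPM (endothelial, 1 of 4 at 0). Of the 5 tested epithelial markers, 4 were lower with the anti-GAA ASO in both pairs and without overlap (EPCAM at −0.21, CDH1 at −0.40, KRT8 at −0.27 and KRT18 at −0.54 on the log2 scale), and KRT19, the largest part of the sum, was at 0.26. Among all tested genes 30.0% were lower in both pairs and 16.9% were lower without overlap. VIL1 and CEACAM5 had at most 2 counts in any library. None of the 5 passed the test, and the part of these differences in the values of the fork genes was not tested.

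In replicates 1 and 2, given in this order throughout, WDHD1 had 17.5 and 11.6 CPM under the anti-GAA ASO, against 32.8 and 18.2 CPM in the controls, from 173 and 207 counts against 503 and 309. Both anti-GAA values lay below both control values, but the gap between anti-GAA replicate 1 and control replicate 2 was narrow, and the control libraries differed from each other 1.80-fold. Within pairs, WDHD1 was at 53.3% and 63.8% of its control, and the fitted log2 fold change (anti-GAA over control) was −0.82 (standard error 0.35, n = 2 per group). In bulk RNA, fewer cells that transcribe a gene and less of its RNA per cell cannot be told apart. The size of this difference rested on single libraries, since the fit gave −0.34 without control replicate 1, −0.54 without anti-GAA replicate 2, −1.12 without anti-GAA replicate 1 and −1.17 without control replicate 2.

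CDC45, the subunit whose joining turns the MCM ring into an active helicase, stayed near its control in every library. It had 68.7 and 70.3 CPM under the anti-GAA ASO, against 72.8 and 72.2 CPM in the controls. Both anti-GAA libraries lay below both control libraries by a small margin, at 94.3% and 97.3% of control within pairs. The fold change was −0.06 on the log2 scale (standard error 0.19), with an adjusted p of 0.996 from edgeR's quasi-likelihood test.

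**Figure D1:**
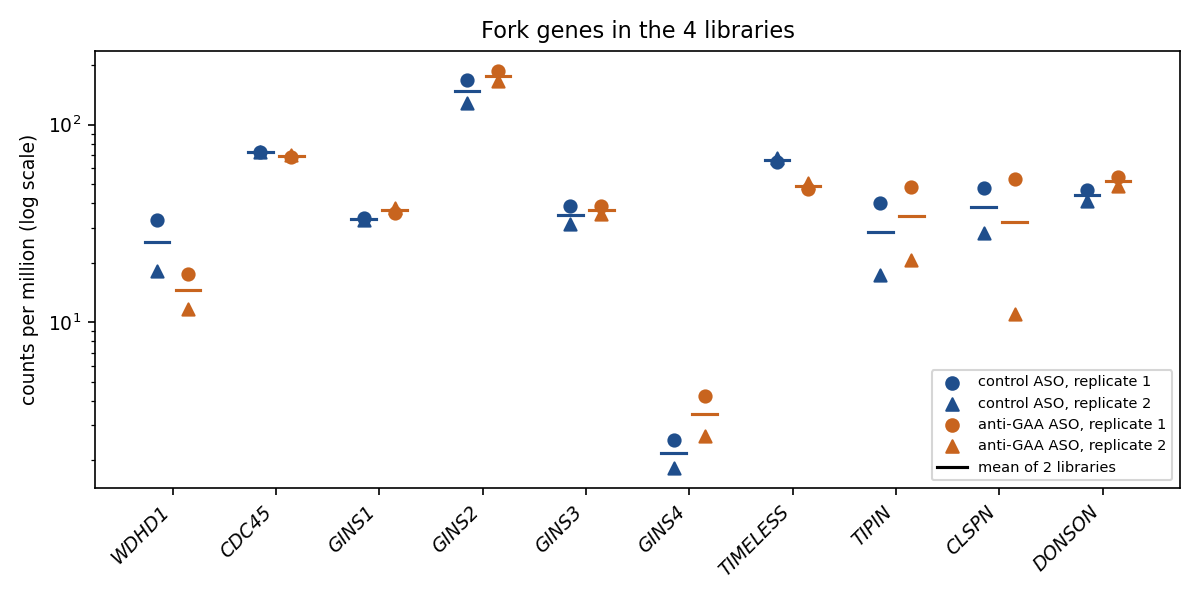
Level of each of the 10 fork genes in the 4 libraries, in CPM on a log scale, with the control ASO in blue, the anti-GAA ASO in orange, replicate 1 as circles, replicate 2 as triangles and the mean of 2 libraries as a line. WDHD1 and TIMELESS sit lower with the anti-GAA ASO in both pairs, CDC45 barely moves, and TIPIN and CLSPN are spread between replicate numbers, from 17.2 to 48.5 CPM and from 11.0 to 53.2 CPM.

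The 4 GINS subunits, which assemble as 1 copy of each in the complex, were all higher with the anti-GAA ASO within both pairs under TMM scaling of the filtered genes. The margin of GINS3 in pair 1 was small, at 100.8% of its control. Under scaling to total counts GINS1 and GINS3 were not higher in pair 1. None of the 4 passed the test. GINS1 had 35.9 and 37.7 CPM against 33.8 and 32.8 CPM in the controls, and its groups did not overlap. GINS2 had 187.5 and 166.5 CPM against 168.2 and 128.1 CPM. Its anti-GAA replicate 2 lay below control replicate 1, so its groups overlapped. GINS3, with 38.8 and 35.4 CPM against 38.5 and 31.4 CPM, overlapped in the same way. GINS4 had 4.24 and 2.64 CPM against 2.54 and 1.83 CPM without overlap, from only 31 to 47 counts per library. Their log2 fold changes were 0.14 (standard error 0.20), 0.26 (0.22), 0.09 (0.21) and 0.64 (0.42) for GINS1 to GINS4, each with an adjusted p of 0.996 (edgeR). Single libraries moved GINS2 to 0.08 without control replicate 2 and 0.46 without control replicate 1, and GINS4 to 0.28 without anti-GAA replicate 1, 0.43 without control replicate 2 and 0.96 without anti-GAA replicate 2. The fitted value of GINS3 turned to −0.01 under total-count scaling and to −0.05 without control replicate 2.

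In the fork protection complex the 3 genes differed from each other. TIMELESS, the scaffold that binds TIPIN, had 47.3 and 50.4 CPM under the anti-GAA ASO, against 64.4 and 67.8 CPM in the controls. Both anti-GAA libraries lay well below both controls, at 73.4% and 74.3% of control within pairs, and the libraries of each group were close to each other. The log2 fold change of TIMELESS was −0.44 (standard error 0.19), with an unadjusted p of 0.0609, the smallest among the 9 partners, and an adjusted p of 0.996 (edgeR).

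TIPIN, the small partner of TIMELESS, had 48.5 and 20.7 CPM under the anti-GAA ASO, against 40.0 and 17.2 CPM in the controls. Replicate 1 exceeded replicate 2 by 2.34-fold with the anti-GAA ASO and by 2.32-fold with the control ASO, so the groups overlapped, while within each pair the anti-GAA library was at 121% and 120% of its control. The fitted change of TIPIN was 0.27 on the log2 scale (standard error 0.50), at an adjusted p of 0.996 in edgeR. The sign of TIPIN rested on single libraries, with −0.46 without anti-GAA replicate 1 and −0.21 without control replicate 2.

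CLSPN, the adaptor that brings CHK1 to ATR, had 53.2 and 11.0 CPM under the anti-GAA ASO, against 47.9 and 28.1 CPM in the controls. The pairs went opposite ways, at 111% of control in replicate 1 and 39.0% in replicate 2, and the 2 anti-GAA libraries differed 4.86-fold. The log2 fold change of −0.26 (standard error 0.65, adjusted p = 0.996 from edgeR) became 0.49 without anti-GAA replicate 2 and 0.17 without control replicate 1. DONSON had 54.4 and 48.9 CPM against 46.4 and 41.2 CPM in the controls, higher in both pairs and without overlap, with a log2 fold change of 0.24 (standard error 0.20, adjusted p = 0.996 from edgeR).

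Counted together, 3 of the 10 genes were lower in both pairs (WDHD1, CDC45 and TIMELESS), where 30.0% of all tested genes were. Higher in both were 6 (4 under total-count scaling and 5 with no filter on low counts), where 31.8% of all were. Groups did not overlap in 3 genes that were lower (the background was 16.9%) and in 3 that were higher (GINS1, GINS4 and DONSON, against 15.5%). The count of lower genes is thus at the background in pairs, and it includes WDHD1, which was chosen for being lower. At an adjusted p of 0.05 edgeR called 0 of the 9 partners, as it called 0% of all genes lower and 0% higher. With p under 0.05 before adjustment edgeR again had 0 of the 9, against 3.46% of all genes that were lower and 1.02% that were higher. DESeq2, run on the same genes, called 0 of the 9 where it called 0.0331% of all genes lower, and had 0 of the 9 at the same unadjusted p, against 2.10% lower among all. Fitted with a block for the replicate number, edgeR called 1.37% of all genes lower and 0.337% higher, and 0 of the 9 partners. WDHD1 was at −0.78 in that fit (standard error 0.17), a value given with no test. TIMELESS then had an adjusted p of 0.138 and CLSPN of 0.293 in edgeR, with log2 fold changes of −0.44 and −0.56. Before adjustment edgeR with the block gave p of 0.00788 for TIMELESS and 0.0469 for CLSPN, and no other partner was under 0.05. The median log2 fold change of the 9 partners was 0.14, beside 0.01 over all tested genes.

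**Figure D2:**
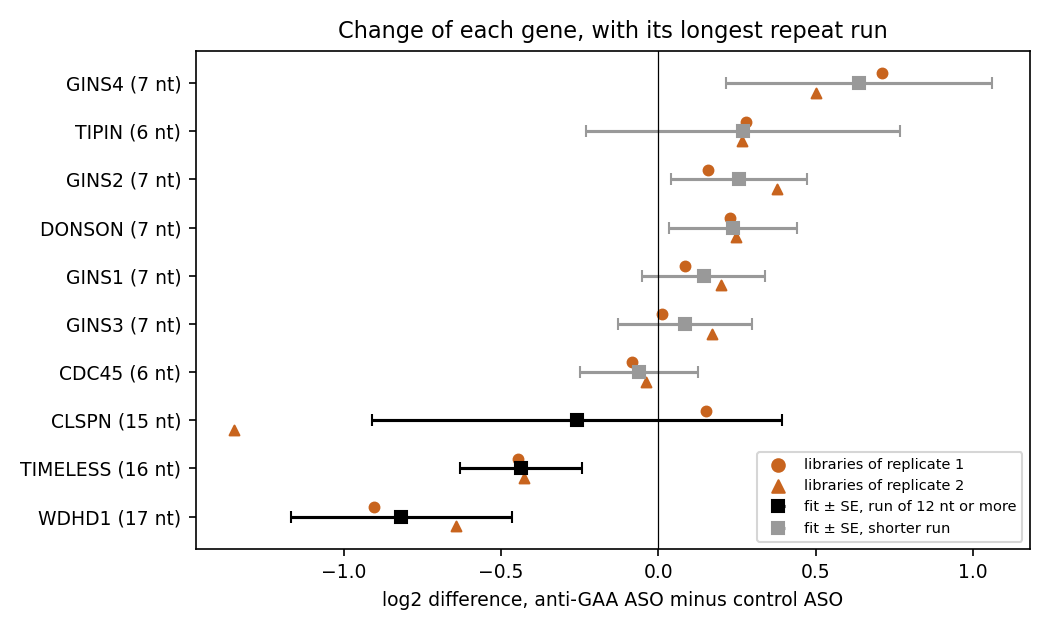
Log2 difference between the anti-GAA and the control ASO for each gene, with squares for the fit and its standard error, circles and triangles for the pairs of replicates 1 and 2, and the longest repeat run of the transcript in brackets. The 3 genes with runs of 15 to 17 nt (black) have the 3 lowest fitted values, of which CLSPN has pairs on both sides of 0, while the 7 with 6 or 7 nt (grey) lie between −0.06 and 0.64. The black genes also have the longest transcripts of those shown.

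Set against each partner within the same library, which removes the scaling between libraries, WDHD1 was again lower. The ratio of WDHD1 to the partner was below its control in both pairs for 8 of 9 partners, a count given with no test since WDHD1 was chosen for its direction. Against CDC45 the ratio with the anti-GAA ASO was 0.565 and 0.656 of that with the control ASO in replicates 1 and 2. Against TIMELESS, the partner that itself was lowest, it was 0.726 and 0.859. The exception was CLSPN, where it was 0.480 and 1.64 of control, since CLSPN in anti-GAA replicate 2 was lower still.

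The genes with the longest runs had the lowest fitted changes. WDHD1, TIMELESS and CLSPN, with runs of at least 12 nt, had the 3 lowest log2 fold changes, with a median of −0.44, and the 7 genes with shorter runs had a median of 0.24, from −0.06 to 0.64. Within the 7 the change did not follow the run, since CDC45 and TIPIN, both with 6 nt, were at −0.06 and 0.27, and with the block CLSPN (−0.56) lay below TIMELESS (−0.44). Without anti-GAA replicate 2 or without control replicate 1, CLSPN was no longer among the lowest 3, and without anti-GAA replicate 1 TIPIN took the place of TIMELESS there. WDHD1, TIMELESS and CLSPN also have the longest transcripts of the 10, at 6019, 5158 and 8512 nt, against 1728 to 4501 nt in the other 7. With offsets for transcript length and GC content in the fit, these 3 genes were at −0.69, −0.38 and −0.15. The part of transcript length in the order was not tested. The standard error of CLSPN is larger than its change, and neither CLSPN nor TIMELESS passed the test, so the order is a description of 10 genes of which WDHD1 was chosen for its direction. Among all 14751 tested genes with a transcript, 94 (0.637%) held a run of at least 15 nt. Of those 94 genes 84.0% had a negative log2 fold change, 64.9% were lower in both pairs and the median was −0.42, while over all 14751 genes 48.3% were negative. Transcript length was not matched between these sets. WDHD1 was among the 18 of these 94 genes with a log2 fold change of at most −0.82, and TIMELESS was close to their median. That GAA-bearing RNAs were lower over the whole table was known when these genes were chosen, so the 3 genes add no independent support to it.

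**Figure D3:**
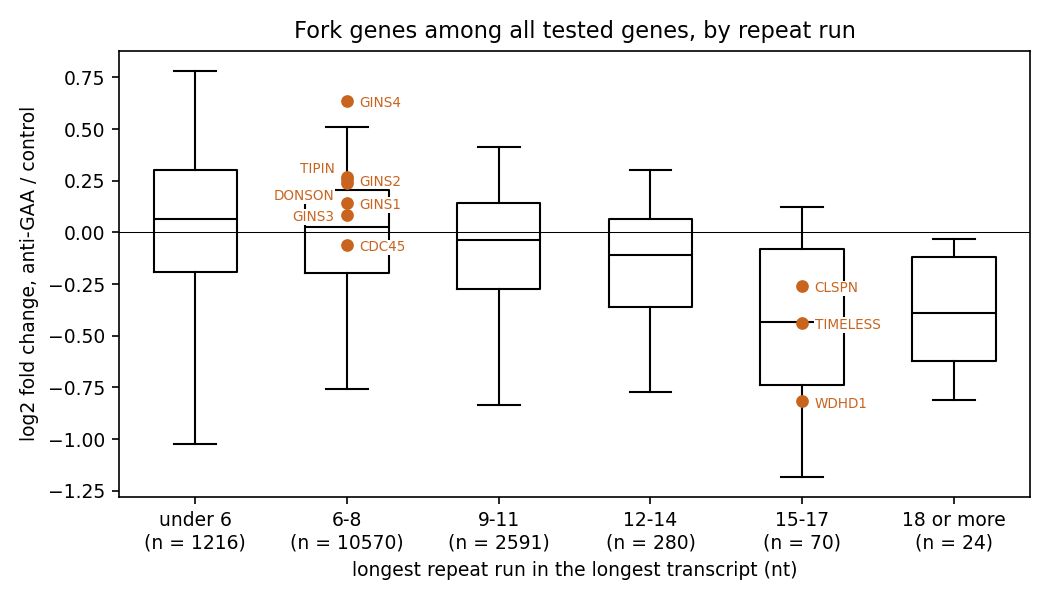
Log2 fold change of all tested genes by the longest repeat run in the longest transcript (boxes give the median and quartiles, whiskers the 5th and 95th percentiles, n the genes in each class), with the 10 fork genes in orange. TIMELESS lies at the median of the class of 15 to 17 nt (−0.44 over 70 genes), WDHD1 below it and CLSPN above it, and the other 7 lie in the class of 6 to 8 nt, whose median is 0.03. The classes were not matched for transcript length.

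Not every fork gene with a run was lower. Among 47 other tested genes of the fork and its loading, 3 held a run of at least 12 nt. UBXN7, an adaptor of the ATPase that unloads CMG, holds 17 nt like WDHD1 and had 27.7 and 24.9 CPM against 23.3 and 27.9 CPM, with a log2 fold change of 0.04 (standard error 0.22). MCM3 (13 nt, 0.04, standard error 0.19) and DDX11 (12 nt, 0.02, standard error 0.27) also lay near 0. All 3 had pairs of opposite direction.

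Levels were compared between genes per kilobase of the longest transcript, in the control libraries. GINS2 was highest at 56.4 ± 10.8 CPM per kb (SD, n = 2), followed by CDC45 at 35.0 ± 0.205, DONSON at 17.5 ± 1.47, TIPIN at 16.5 ± 9.31 and TIMELESS at 12.8 ± 0.465 CPM per kb. GINS3 (10.9 ± 1.56), GINS1 (7.39 ± 0.156), CLSPN (4.47 ± 1.64), WDHD1 (4.24 ± 1.71) and GINS4 (0.564 ± 0.131 CPM per kb) came after them. DONSON could not be told from TIPIN, TIPIN from TIMELESS, or CLSPN from WDHD1, since their control libraries overlapped. WDHD1 was thus one of the least abundant RNAs of the group, and the 4 subunits of GINS, present in equal number in the protein complex, ranged from 0.564 to 56.4 CPM per kb. With the canonical transcript in place of the longest, an alternative chosen after seeing the data because the longest transcripts of GINS1 and GINS3 are non-coding, GINS3 passed TIMELESS and the rest of the order stayed. With the mean length over all annotated transcripts, GINS3 came next after CDC45 at 29.5 CPM per kb, ahead of DONSON, TIPIN and TIMELESS, and the places of the other 6 genes stayed. By this length GINS3 could not be told from DONSON or TIPIN, since their control libraries overlapped.

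Genes that start beside these genes or overlap them were examined because a shared start or shared reads could make 2 genes move alike. The nearest to WDHD1 is SOCS4 (ENSG00000180008), a suppressor of cytokine signalling, which starts 125 bases away on the other strand and does not overlap it. SOCS4 had 21.8 and 22.3 CPM under the anti-GAA ASO, against 32.9 and 31.7 CPM in the controls. Both anti-GAA libraries lay below both controls, with a log2 fold change of −0.55 (standard error 0.20, adjusted p = 0.996 from edgeR), although the longest run in its transcript is 8 nt. Whether the shared start has a part in the lower WDHD1 was not tested.

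The other gene pairs with close starts moved little. UFD1, 255 bases from the start of CDC45, had a log2 fold change of 0.13, ABHD12, 173 bases from that of GINS1, had 0.11, and MAP2K1, 91 bases from that of TIPIN, had −0.08, all within 1 standard error of 0. Overlaps concern DONSON above all, since 17940 bases of its body are shared with SON on the other strand. SON had 283 and 206 CPM against 316 and 204 CPM (log2 fold change −0.09, standard error 0.28), and where reads were not counted by strand those of shared exons cannot be told apart from DONSON's. GINS1 overlaps NINL (0.07, standard error 0.43) and GINS2 shares 7 bases with GSE1 (0.24, standard error 0.26). A Y RNA inside TIPIN had only 12 counts in all libraries.

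Many replication genes are activated at the start of S phase by E2F factors, so the start regions were searched for 4 E2F core motifs (TTTCCCGC, TTTGGCGC, TTTCGCGC and TTTGCCGC, both strands) in windows from 250 bases before to 50 bases after the start (RefSeq, GRCh38.p14). Windows were found for 8 of the 10 genes, and for GINS4 and DONSON none was. Of the 8, 5 held a motif, against 3.31% of 35116 windows in the table. The 8 are counted by gene, and CDC45 had 3 windows and TIPIN 2, so the 2 shares are not of the same unit. The sites are shown with the motif in capitals and 8 bases on each side, on the strand of the gene, where the motif may read in reverse complement. In TIPIN the motif also matches on the other strand, at overlapping bases.
GINS1: tttgttcgGCGCCAAAgcgcggag
GINS2: tcgccgtgGCGGGAAAacggcggc
GINS3: ccccgggcGCGGGAAAcgagtttc
TIPIN: cgcacggaTTTGGCGCcaaacgct
CLSPN: ctggctggGCGGGAAAgcaagaac

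They lie at chr20:25407670-25407693 on the plus strand (GINS1), chr16:85688970-85688993 on the minus strand (GINS2), chr16:58392458-58392481 on the plus strand (GINS3), chr15:66356736-66356759 on the minus strand (TIPIN) and chr1:35769968-35769991 on the minus strand (CLSPN). The windows of WDHD1, CDC45 and TIMELESS, the 3 genes that were lower in both pairs, held none of these letters. A match is a description of the sequence and no evidence of binding.

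The other genes of the fork were taken from lists by function. None of the 47 tested genes in them passed an adjusted p of 0.05 in edgeR, 9 were lower in both pairs and 17 higher, and the median log2 fold change was 0.04. Of all tested genes 30.0% were lower in both pairs and 31.8% higher, which is the background for the counts in these lists. The 6 MCM subunits, the other part of CMG, had a median of 0.15, with 4 higher in both pairs and 0 lower. This median was 0.06 under total-count scaling, 0.03 without anti-GAA replicate 1, 0.06 without control replicate 2, 0.27 without anti-GAA replicate 2 and 0.31 without control replicate 1. The largest were MCM7 at 0.36 (standard error 0.30) and MCM2 at 0.30 (0.27). Of the 9 factors that load CDC45 and GINS, 1 was lower and 1 higher in both pairs, TOPBP1 at −0.40 (standard error 0.22) and DBF4B at 0.34 (0.32), and the median was −0.03.

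Polymerase alpha-primase, which WDHD1 binds, had a median of 0.04 over 4 subunits, with PRIM1 at 0.27 (standard error 0.22) and POLA1, the catalytic subunit, at −0.26 (0.23). Among 12 genes of ATR-CHK1 signalling, with a median of 0.05, the kinase ATR had 7.48 and 7.70 CPM under the anti-GAA ASO, against 13.0 and 13.6 CPM in the controls. Its groups stood apart by a wider gap than those of WDHD1, with a log2 fold change of −0.80 (standard error 0.25, adjusted p = 0.987 from edgeR) and a longest run of 8 nt. ATRIP, its partner, was at −0.60 (0.35). In the list of cohesion and CTF18-RFC genes (10 genes, median 0.03) CHTF18 was at −0.46 (0.30) and CHTF8 at 0.20 (0.18), and among 6 genes of CMG removal (median −0.04) FAF1 was at −0.23 (0.19) and LRR1 at 0.05 (0.35).

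Cell cycle lists stand beside these values because the fork genes are transcribed around the start of S phase. Of 22 G1/S genes 21 were matched and tested, with a median log2 fold change of 0.11, 3 lower and 7 higher in both pairs, and with DTL at 0.37 (standard error 0.23) and E2F1 at −0.30 (0.26). The 17 G2/M genes had a median of 0.04, with 7 lower and 4 higher in both pairs, and with CENPE at −0.85 (0.37) and HMMR at −0.84 (0.26). The shares over all tested genes were 30.0% lower and 31.8% higher in both pairs. No gene of either list passed the adjusted p without the block, and with it edgeR called HMMR lower (log2 fold change −0.84, standard error 0.15, adjusted p = 0.0122). The part of the cell cycle in the values of WDHD1 was not tested.

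The genes whose values over the 4 libraries were most like those of WDHD1 were looked up by the Euclidean distance of mean-centred log2 CPM over 13804 genes averaging 1 CPM or more. The 5 nearest were RPL17 (ENSG00000265681, distance 0.083), POLR2J4 (0.111), AMDHD2 (0.132), POMT1 (0.190) and SLC6A20 (0.199). Their values lay between 0.674 and 12.8 CPM, and their longest runs had 5 to 9 nt. RPL17 and POLR2J4 had only 0.674 to 1.96 CPM, and they have near-identical copies in the genome. Their counts are uncertain, and the part of the copies in them was not tested.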

How the data were processed

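RNA-seq of HCT116 cells comprised 2 anti-GAA ASO and 2 control ASO libraries. The deposited values are raw counts per gene, without normalization, which the authors made by trimming, alignment with STAR to hg19, removal of GL contigs and counting on Ensembl genes with featureCounts. The Ensembl release, strand setting and treatment of multimapping reads are not given in the sources used here. The 10 genes and all lists were chosen with earlier results of these data known. Genes kept by filterByExpr were TMM-normalized and tested with edgeR 4.0.16 (glmQLFit, glmQLFTest) in R 4.3.3 with no term but the ASO and with p adjusted by Benjamini-Hochberg over 15116 genes, after a check of the fit on simulated counts. Pair differences used log2 CPM with a prior count of 2. Deviations from group means correlated at r = 0.564 across genes between libraries sharing a number. Symbols, transcripts and positions came from GENCODE 44 (GRCh38), joined by Ensembl identifier, with no hg19 position carried over. Named genes were the 10, their overlapping or start-sharing neighbours with at least 10 counts, the called genes or the 2 largest changes moving alike in both pairs per list, and the 5 profiles nearest to WDHD1. Genes named for their run (UBXN7, MCM3 and DDX11) were chosen after their values were seen. Alternatives were DESeq2 1.42.0 on the same genes, its size factors in edgeR, total-count scaling, other filters, the replicate block, length and GC offsets, and leaving out each library.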

Additional observations from a re-analysis of the deposited data

How the results depend on the processing

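With 2 libraries a group, a single library decides several values. WDHD1 kept its direction under all alternatives run, from −1.17 to −0.34 with 1 library left out and at −0.69 with length and GC offsets. It was chosen for being lower and its groups do not overlap, so leaving out 1 library could hardly reverse it. The kept direction is therefore a description and no test. Of the partners, 3 changed sign without being called: GINS3 (−0.0061 with total-count scaling, and −0.045 to 0.23 with 1 library left out), TIPIN (−0.46 to 0.99) and CLSPN (−1.79 to 0.49). The cause was not tested. The other 102 of 108 alternatives for the partners kept direction and side of the threshold. Medians of the other fork and cell cycle lists moved by more than the spread between replicates in 32 of 96 alternatives, and 6 of the 8 changed sign under at least 1 of them (that of G2/M genes to −0.16 without anti-GAA replicate 1). The fit with the replicate block called 1 of the 10 genes lower, beside 1.37% of all tested genes. Without the block 0 of the 10 were called, and likewise 0 with the block and the length and GC offsets together. The called gene is WDHD1, which was chosen for being lower in both pairs, the difference that the block fit measures. This call was therefore favoured by the choice and is no test of WDHD1. In the other lists the block added HMMR, and it called 0 of the 9 partners. The labels do not say that a number marks a shared culture, so the block rests on a shared number only.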
